A study of Caenorhabditis elegans with 4 samples.

Results

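Runs of closely spaced EPC-1 binding sites were examined in the ChIP-seq peak lists of 2 immunoprecipitations from whole L3 larvae of the Caenorhabditis elegans wild-type strain N2. The run peaks were chosen by position within each list. Neighbouring peaks of a chromosome were linked when their midpoints were 5000 bp or less apart, and peaks in linked runs of 3 or more were kept. This gave 381 of the 3455 peaks of replicate 1 and 233 of the 2833 peaks of replicate 2, or 614 of 6288 peaks over both lists. All animals shared strain, stage and tissue, and both lists came from the same antibody against EPC-1 on chromatin crosslinked with EGS and formaldehyde. The 4 samples of the series also include 2 input DNA samples, which have no file here and were not analysed, so every comparison is between run peaks and the remaining peaks of the same list, or between the lists. Whole larvae mix all cell types of the animal, and a run need not be occupied in any single cell.

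In the worm, EPC-1 is the counterpart of the protein Enhancer of Polycomb. Proteins of this family are scaffold subunits of the TIP60 (NuA4) complex, in which they hold the acetyltransferase of the MYST family, MYS-1 in the worm, against the nucleosome. The complex acetylates histones H4 and H2A and is known for its work at active genes and in DNA repair. The worm genome is compact, with short distances between genes and many genes in operons, so neighbouring binding sites can belong to different genes. No genome or annotation of the build of the files, WormBase release WS190, was used, and runs are therefore given by position and not by gene or sequence.

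The runs were short and few. There were 120 in replicate 1 and 75 in replicate 2, which gives a mean of 97.5 ± 31.8 (SD, n = 2). Run peaks made up 11.03% of the list in replicate 1 and 8.22% in replicate 2, a mean of 9.63% ± 1.98 (SD, n = 2). Linked pairs held 864 peaks in replicate 1 and 576 in replicate 2, and 2210 and 2024 peaks had no linked neighbour. Of the replicate 1 runs, 102 had 3 peaks, 16 had 4, 1 had 5 and 1 had 6. Of the replicate 2 runs, 67 had 3 peaks and 8 had 4. The median run spanned 8588 bp in replicate 1 (quartiles 7150 and 9974, range 4828 to 20291) and 8587 bp in replicate 2 (quartiles 7485 and 10051, range 4932 to 14757). Together the runs took up 1059 kb of the genome in replicate 1 and 650 kb in replicate 2. Peaks filled a median of 66.9% of a run in replicate 1 and 71.7% in replicate 2, and the rest was gap.

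The lists differed little in the number of runs once they were of equal length. When replicate 1 was cut to its 2833 highest-scoring peaks, the length of replicate 2, it held 71 runs against 75 in replicate 2. The score is the authors' own value for each peak. Its scale is not stated, and it ends at a tied value of 3100 that only a few peaks exceed. It may depend on read depth, which is unknown.

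The run with the most peaks lay on chromosome IV from 15036427 to 15050155. Replicate 1 had 6 peaks there, with scores of 894, 653, 771, 375, 718 and 54.5 from left to right. Replicate 2 had 4, with scores of 385, 589, 1213 and 738. The third replicate 2 peak, 3188 bp wide, covered the third and the fourth of replicate 1, which were 177 bp apart, and the last replicate 1 peak, the lowest, had no counterpart. The first 2 peaks and the one scoring 718 had a partner each. So the run was present in both lists with a different number of peaks.

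The longest run, on chromosome III from 12597153 to 12617443, spanned 20291 bp. Its 5 peaks in replicate 1 scored 3100, 1931, 3100, 783 and 340, and were between 1893 and 4381 bp wide. In replicate 2 the same stretch held 3 broad peaks with scores of 3100, 3100 and 1139 and widths of 2999, 8256 and 6015 bp. Their midpoints were over 5000 bp apart, and the stretch was therefore not a run in replicate 2, although every replicate 1 peak overlapped one of the 3.

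Other runs were called nearly peak for peak. On chromosome II, from 4692746 to 4707502, both lists had 4 peaks. They scored 198, 1300, 3100 and 1055 in replicate 1 and 96.7, 872, 3100 and 843 in replicate 2, so the third peak was the highest and the first the lowest in both. A second such run, on chromosome I from 6561808 to 6575072, scored 305, 554, 1319 and 1856 in replicate 1 and 108, 431, 751 and 1564 in replicate 2, with the scores in ascending order in both. On II from 10861134 to 10873628 the 4 scores were 338, 64.1, 586 and 544 in replicate 1 and 167, 53.3, 922 and 459 in replicate 2. On III from 9538266 to 9549448 they were 82.5, 105, 805 and 256 in replicate 1 and 50.7, 110, 1052 and 175 in replicate 2. In all 4 of these runs the same peak was the highest in both lists, and the same peak was the lowest. With the run on chromosome IV they were taken as the 5 runs of both lists with the most peaks, ties going to the longer span. A shorter run on chromosome I tied with these 4, with 4 peaks in each list. It began at 3028714 and ended at 3038603 in replicate 1, and replicate 2 placed it between 3028645 and 3038761.

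Runs also differed between the lists through a single weak peak. On chromosome II from 5345941 to 5359373, replicate 1 had 3 peaks at 3100 and, between the second and the last of them, a peak of 57.7. Replicate 2 had the 3 peaks at 3100 without the weak one, which left a pair and a lone peak. The run on IV from 16940707 to 16956918 had scores of 2568, 3100, 781 and 148 in replicate 1. Replicate 2 held the first 3 (2068, 3100 and 873) and lacked the last. In the other direction, a replicate 2 run on I from 13362310 to 13374010 had scores of 282, 92.5, 264 and 143, and the peak of 92.5 had no partner. Replicate 1 had 3 peaks in that stretch, with scores of 312, 149 and 276, and the gap of 4605 bp after the first of them put its midpoint over 5000 bp from the next.

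**Figure D1:**
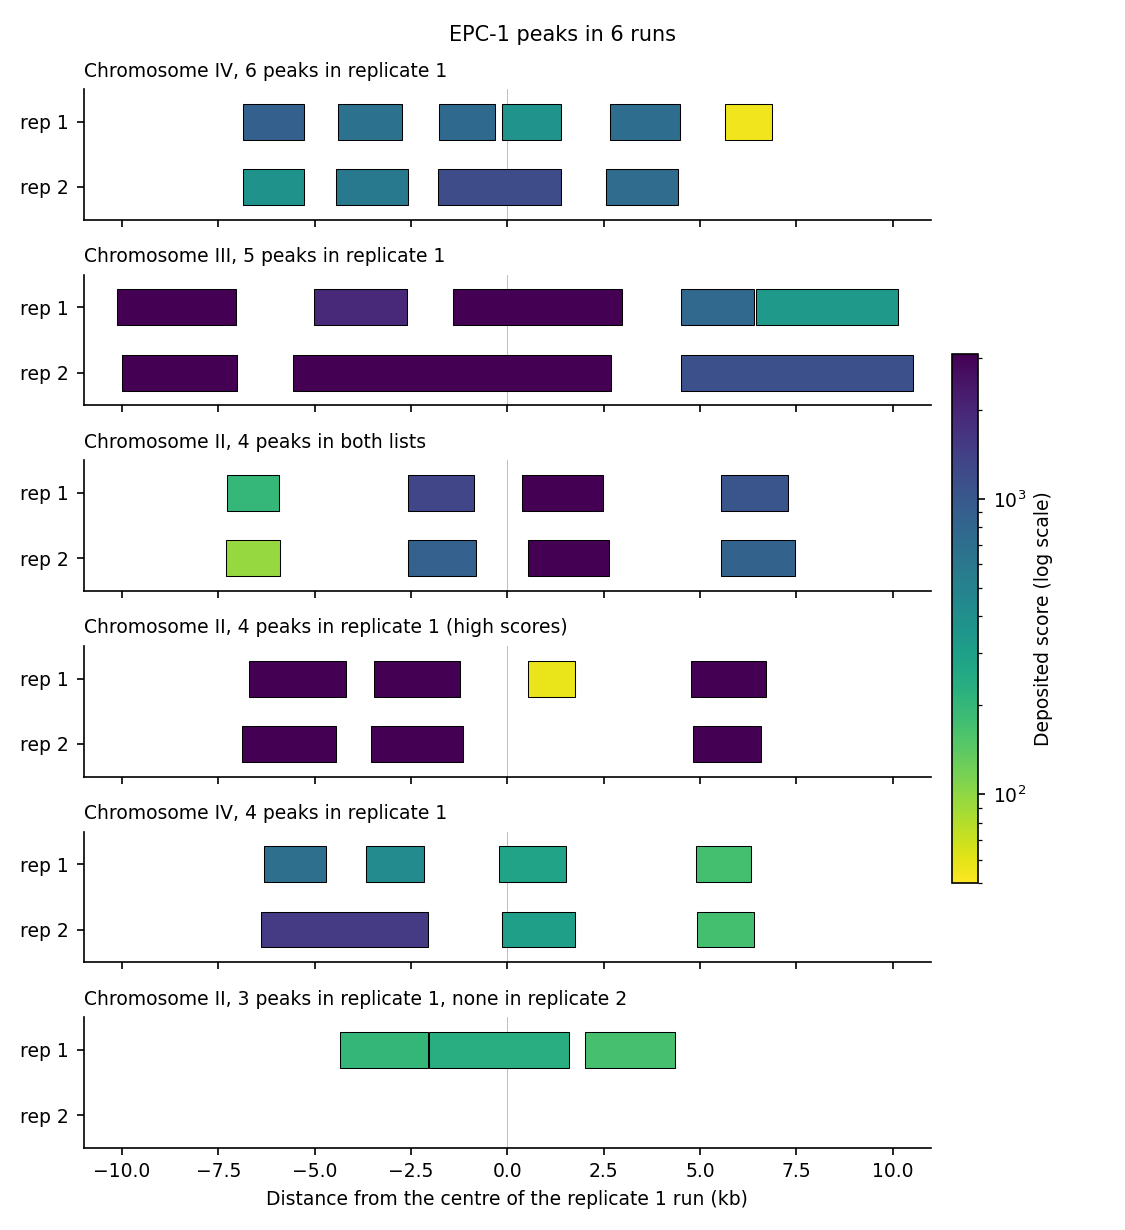
Peaks of both lists in 6 runs, drawn by distance in kb from the centre of the replicate 1 run, with replicate 1 above replicate 2. Box length is peak width and colour is the deposited score on a log scale, and broad replicate 2 boxes stand under 2 replicate 1 boxes in the runs of 6 and 5 peaks and in the lower run on IV.

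Neighbours within a run were usually separated by more than 1 kb. Over the 261 links within runs of replicate 1, midpoints were a median of 3185 bp apart (quartiles 2461.5 and 3912) and the gap from the end of a peak to the start of the next had a median of 1339 bp (quartiles 653 and 2024, range 1 to 3712). In the 158 links of replicate 2 the medians were 3171 bp between midpoints and 1144.5 bp for the gap (range 7 to 3449). Gaps under 500 bp made up 52 of the 261 links of replicate 1 and 38 of the 158 of replicate 2. Links within pairs had a median gap of 1366 bp in replicate 1 and 1284.5 bp in replicate 2.

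The limit of 5000 bp did not fall in a natural break of the distances. The last linked neighbours were 4999 bp apart in both lists, and the first that were not linked were 5012.5 bp apart in replicate 1 and 5004.5 bp in replicate 2. In replicate 1, 75 distances lay between 4500 and 5000 bp and 85 between 5000 and 5500 bp, and in replicate 2 there were 50 and 59. A link over 4500 bp was part of 26 of the 120 runs of replicate 1 and 14 of the 75 of replicate 2.

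Runs were spread over all 6 chromosomes. Chromosome I had 34 runs in replicate 1 and 22 in replicate 2, and III had 30 and 19. Chromosome II had 19 and 11 runs, IV had 18 and 10, V had 14 and 9, and X had 5 and 4. The share of a chromosome's peaks that lay in runs was 14.4% on I in replicate 1 (exact Clopper-Pearson 95% interval 11.9 to 17.1), 13.3% on III (10.9 to 16.1), 11.1% on II (8.61 to 14.04), 10.2% on IV (7.91 to 12.9), 8.22% on V (5.99 to 10.9) and 4.60% on X (2.65 to 7.36). In replicate 2 it was 10.95% on I (8.64 to 13.6), 10.02% on III (7.69 to 12.8), 7.61% on II (5.36 to 10.4), 6.39% on IV (4.38 to 8.95), 6.52% on V (4.34 to 9.35) and 4.69% on X (2.45 to 8.04). These intervals cover counting error only. I and III, the chromosomes with the most peaks per Mb, thus had the highest shares in both lists, and X, with the fewest, the lowest. Intervals of neighbouring chromosomes in this order overlapped. Peak spacing chose the runs and sets peak density too, so this order is a description.

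**Figure D2:**
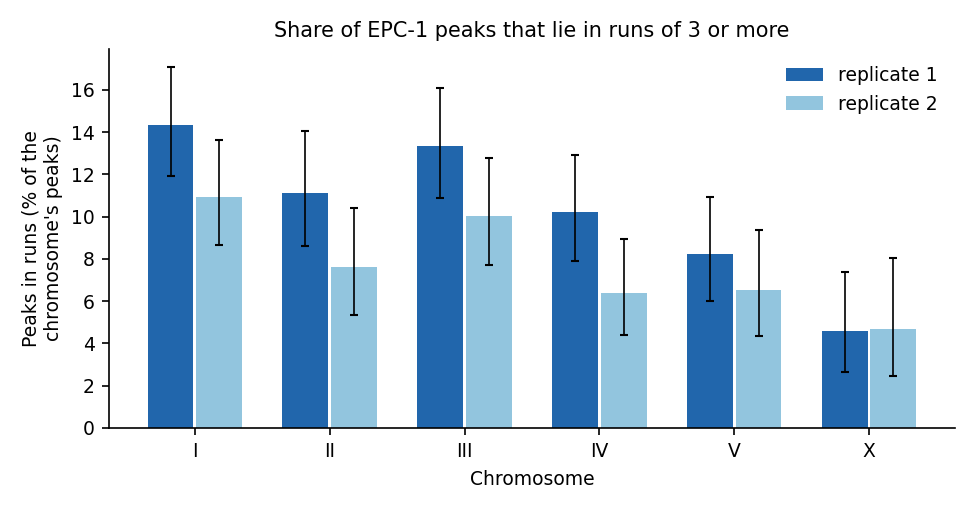
Share of each chromosome's peaks that lie in runs, in percent, for both lists, with exact 95% intervals for counting error. Bars run from 14.4% on I to 4.60% on X in replicate 1 and from 10.95% on I to 4.69% on X in replicate 2.

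Run peaks were sparse in the middle of some chromosomes and not of others. Each chromosome was divided into equal parts between its outermost peaks, a left, a middle and a right 33.3%. Over all chromosomes 31.0% of the run peaks of replicate 1 lay in the middle (118 of 381), against 39.7% of the remaining peaks, and in replicate 2 27.5% (64 of 233) against 38.1%. The gap was wide on chromosomes I and IV in both lists. On I the middle held 21.3% of run peaks against 41.3% of remaining peaks in replicate 1, and 22.9% against 39.2% in replicate 2. On IV it held 19.7% against 40.7% in replicate 1, and 0 of 31 run peaks against 38.3% in replicate 2. Those 31 peaks lay in only 10 runs, and linked peaks mostly share a part, so they are not separate counts. Without chromosomes I and IV, which were left out because of these values, the shares were 39.2% against 38.9% in replicate 1 and 36.4% against 37.6% in replicate 2. No run lay in the middle of X in either list, with 16 and 12 run peaks there in all. Chromosome II went the other way, with 47.5% of run peaks in the middle against 41.2% in replicate 1 and 60.0% against 38.8% in replicate 2. On III the middle held 38.7% against 37.9% in replicate 1 and 31.0% against 37.2% in replicate 2. On V it held 42.9% against 42.2% and 33.3% against 42.4%. The near equal shares without I and IV thus join chromosomes that differ in direction.

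The right part held a larger share of run peaks than of remaining peaks on every chromosome but II, in both lists. Over all chromosomes it held 43.0% against 30.6% in replicate 1 and 48.5% against 31.8% in replicate 2. On II it held 31.1% against 35.5% and 11.4% against 38.1%. The excess was widest on III and IV. On III, 58.1% of run peaks lay in the right part in replicate 1 against 33.2% of remaining peaks, and 58.6% against 33.8% in replicate 2, while the left part held 3.23% against 28.9% and 10.3% against 29.0%. On IV the right part held 54.1% against 28.0% in replicate 1 and 80.6% against 28.4% in replicate 2. Few windows held several runs. Of 197 full windows of 500 kb, 28 held 2 or more runs in replicate 1 and 15 in replicate 2, 111 held none in either list, and no window held more than 3 in a list. Windows with 3 runs in both lists were on III from 13014049 to 13514048 and from 11514049 to 12014048 and on I from 10515893 to 11015892. Successive runs of a chromosome were a median of 446 kb apart in replicate 1 and 654 kb in replicate 2, and the shortest distances were 4.78 and 4.91 kb. Whether run peaks sit at other places than the remaining peaks was not tested, because position chose them.

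**Figure D3:**
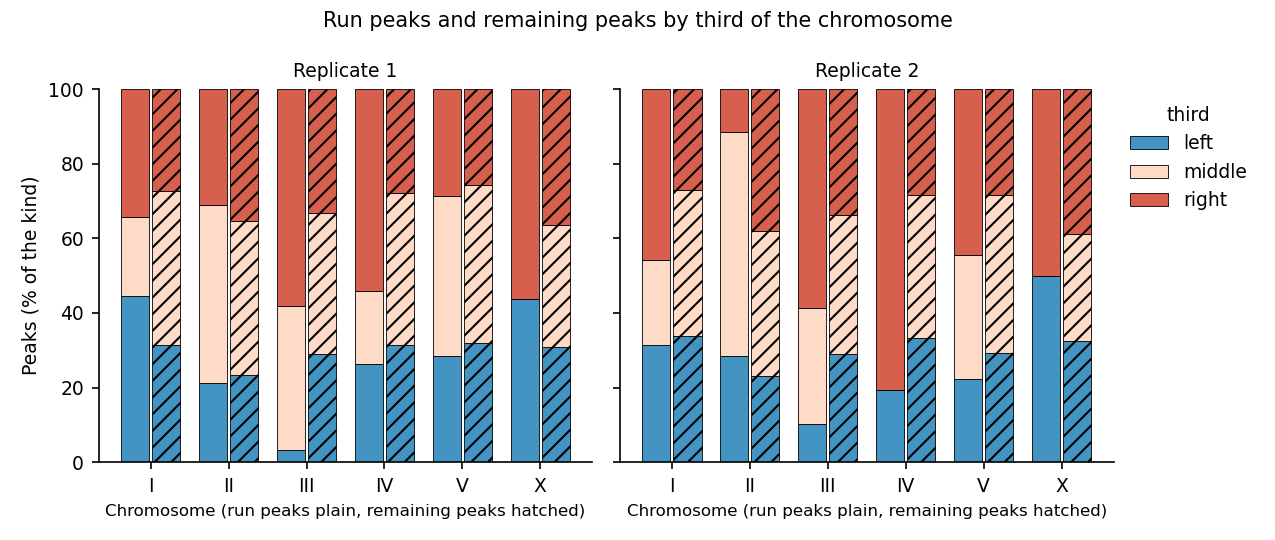
Run peaks (plain bars) and remaining peaks (hatched bars) of each chromosome by left, middle and right 33.3% of the span between its outermost peaks, in percent of the kind. The middle part is small or missing in the plain bars of I, IV and X. The right part takes up 50% or more of the plain bars of III, IV and X in both lists.

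Single runs can be given for X, where there were few, a choice made after the values were seen. In both lists X had a run from 1445110 to 1457191 in replicate 1 and to 1455330 in replicate 2, whose highest peak reached 3100 in each. The others in both lists started at 3099335 and 16792508 in replicate 1, with top scores of 392 and 770, and their top scores in replicate 2 were 201 and 677. The remaining replicate 1 runs started at 14974738 and 15606024 and the remaining replicate 2 run at 13968562, and in each of these 3 runs 1 peak had no partner.

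Run peaks were ordinary in width. Their median width was 1554 bp in replicate 1, against 1561 bp in the remaining peaks, and 1655 bp in replicate 2, against 1703.5 bp. Very broad peaks were fewer among them, which the rule favours, since a broad peak pushes the midpoints of its neighbours away. Peaks of 3 kb or more made up 26 of 381 run peaks of replicate 1 (6.82%) and 8.10% of the remaining peaks, and 17 of 233 run peaks of replicate 2 (7.30%) against 12.04%. The widest run peak was on chromosome V from 13652359 to 13659711 (7353 bp, score 1203) in replicate 1 and on IV from 16940672 to 16945907 (5236 bp, score 2068) in replicate 2. The widest peak of each whole list, of 12862 and 19453 bp, was a single peak.

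The scores of run peaks covered the whole range of the lists. The median score of run peaks was 322 in replicate 1 (quartiles 130.0 and 771), against 231 in the remaining peaks (106 and 658). In replicate 2 it was 257 (128 and 751) against 242 (104 and 693). Pairs had medians of 243 in replicate 1 and 286 in replicate 2, and single peaks 226 and 231. Run peaks at or above 3100 numbered 35 of 381 in replicate 1 (9.19%, exact interval 6.48 to 12.5), against 6.15% (5.32 to 7.06) of the remaining peaks, and 21 of 233 in replicate 2 (9.01%, 5.67 to 13.4), against 7.12% (6.16 to 8.17). These values come from the lists that chose the runs and are given with no test. The intervals of run peaks and remaining peaks overlapped in both lists, which does not show that the shares are equal. They also count linked peaks of a run as separate.

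**Figure D4:**
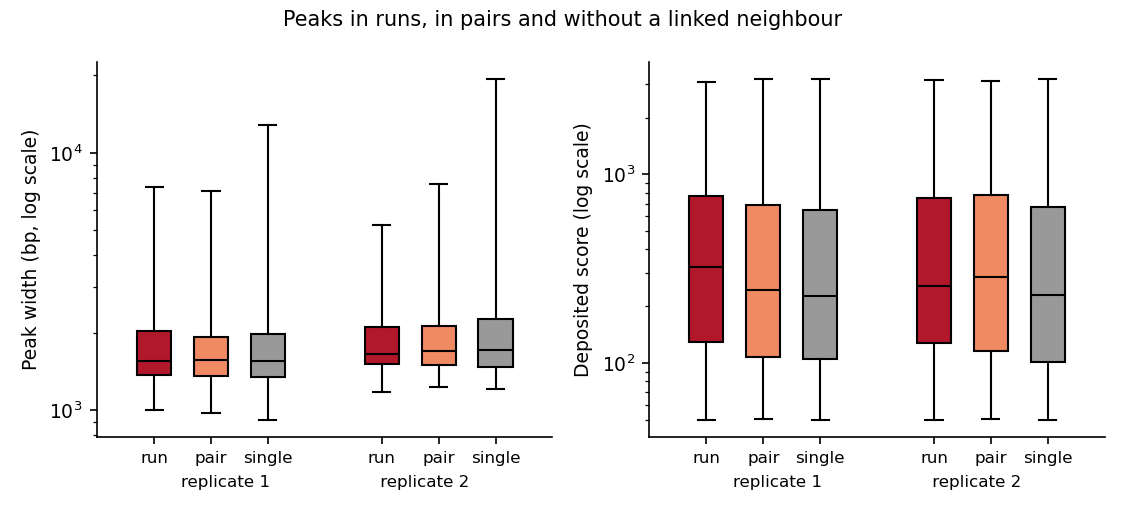
Width in bp and deposited score, both on log axes, of peaks in runs, in pairs and without a linked neighbour, for each list. Boxes give median and quartiles and whiskers the lowest and highest values, and the boxes of the 3 kinds overlap in both measures, with median widths of run peaks of 1554 and 1655 bp.

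High and low peaks stood in the same runs. The sources used here do not give the scale of the score, so scores within a run were compared by their percentile in the list. The highest peak of a run lay a median of 51.5 percentile points above the lowest in replicate 1 (quartiles 33.6 and 65.01) and 48.01 in replicate 2 (28.3 and 68.6). Linked neighbours in runs differed by a median of 26.3 percentile points in replicate 1 (261 links), against 30.1 for linked pairs (432) and 28.05 for neighbouring peaks that were not linked (2756). In replicate 2 the medians were 23.7 (158 links), 29.9 (288) and 28.5 (2381). These differences between kinds of neighbours were not tested. In 59 runs of replicate 1 (49.2%) and 37 of replicate 2 (49.3%) the lowest peak scored under 100. Over all peaks the lowest score quartile ended at 107.6 in replicate 1 and 105.5 in replicate 2. Many sets of 3 or more peaks from anywhere in a list would thus hold one about this low. Such sets outside runs were not examined, for this count or for the percentile range. At least 1 peak reached 3100 in 26 runs of replicate 1 and 15 of replicate 2, and at least 2 peaks did in 8 and 6. Among the runs of 3 peaks, the highest was the first in 33, the middle one in 24 and the last in 39 of replicate 1, with 6 ties, and in 23, 18 and 21 of replicate 2, with 5 ties.

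Where every peak of a run had a partner of its own and neither list had a tied top score, the highest peak was mostly the same in both lists. This left 50 of the 120 replicate 1 runs, and the other 70 were not compared. The top peak was the same in replicate 2 in 44 of them (88.0%, exact interval 75.7 to 95.5). Of 54 such runs among the 75 of replicate 2, with 21 not compared, the top peak was the same in replicate 1 in 46 (85.2%, 72.9 to 93.4). For runs of exactly 3 peaks the counts were 39 of 45 and 41 of 48. The runs of the lists are largely the same stretches, so these are not independent counts. No such count was made for neighbouring peaks outside runs, so whether this is particular to runs was not tested.

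The next comparison asked whether run peaks were found again in the other list, which had no part in choosing them. Of the 381 run peaks of replicate 1, 315 overlapped a replicate 2 peak by at least 1 bp (82.7%, exact interval 78.5 to 86.3), against 2414 of 3074 remaining peaks (78.5%, 77.03 to 79.97) and 79.0% of the whole list. Of the 233 run peaks of replicate 2, 220 overlapped a replicate 1 peak (94.4%, 90.6 to 97.0), against 2474 of 2600 remaining peaks (95.2%, 94.3 to 95.9) and 95.1% of the whole list. The shares of run peaks were thus near those of all peaks. Averaged over the 6 chromosomes, the share of run peaks was 4.52 percentage points above that of the remaining peaks in replicate 1 (SD over chromosomes 5.55, higher on 4 of 6) and 1.02 below it in replicate 2 (SD 1.81, lower on 5 of 6). Neither difference passed the threshold of 0.05 (exact two-sided sign-flip permutation over chromosomes, p = 0.125 and p = 0.22, Benjamini-Hochberg adjusted over 4 tests p = 0.17 and p = 0.22). The smallest p that 6 chromosomes allow is 0.031. In replicate 1 the widest difference was on X, 14.4 percentage points from 16 run peaks, and without X the mean was 2.54. With an overlap of 50% of both peaks in place of 1 bp it was 0.26. In replicate 2 the mean was -1.11 without X and -2.26 at the 50% overlap. Other settings made the replicate 1 difference wider, up to 10.2 where both lists were cut to scores of 100 or more.

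Presence in the other list went with score in run peaks as in the rest. In the lowest score quartile of replicate 1, 33 of 79 run peaks had a counterpart (41.8%, 30.8 to 53.4), against 39.4% of the remaining peaks, and in the second quartile 59 of 79 (74.7%, 63.6 to 83.8), against 77.7%. All 111 run peaks of the third quartile and all 112 of the fourth had one, against 98.9% and 99.9%. In replicate 2, 39 of 52 run peaks of the lowest quartile had a counterpart (75.0%, 61.1 to 86.0), against 84.3% (81.3 to 87.0). Every run peak of the other 3 quartiles had one, against 96.6%, 99.8% and 100% of the remaining peaks, so these shares were near those of the rest. The 66 run peaks of replicate 1 without a counterpart had a median score of 73.8 and none above 232. The 13 of replicate 2 had a median of 65.5 and none above 100.2.

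**Figure D5:**
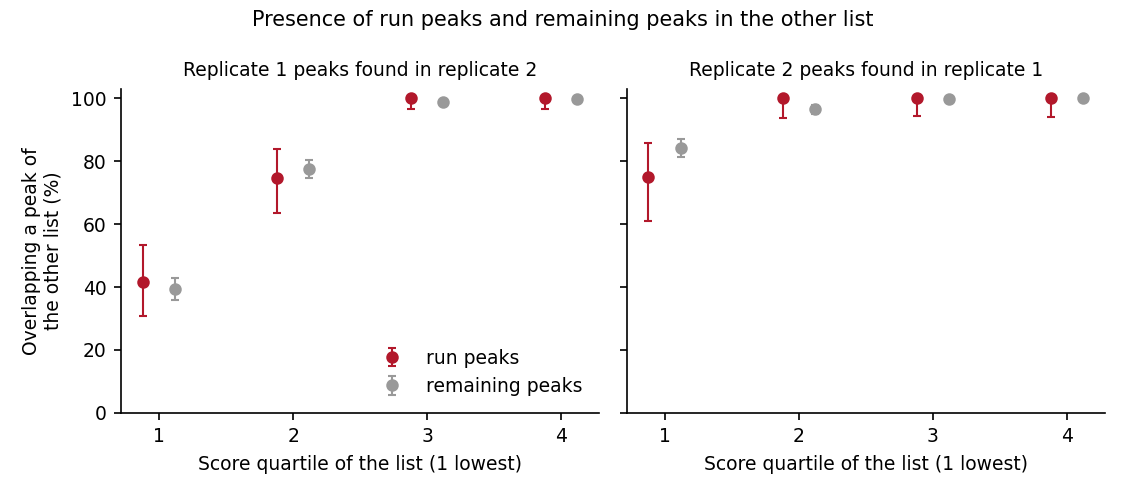
Percent of run peaks and of remaining peaks that overlap a peak of the other list, by score quartile of their own list, with exact 95% intervals for counting error. In the lowest quartile of replicate 1 the points stand at 41.8% and 39.4%, and in the lowest of replicate 2 at 75.0% and 84.3%, with overlapping intervals in each case.

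A difference in the scores of the partners in the other list did not pass the threshold. Overlapping peaks were paired by largest overlap first, with each peak of either list in at most 1 pair. Each partner was given its score percentile within its own list. Of the peaks with an overlap, 295 of 315 run peaks and 2386 of 2414 remaining peaks of replicate 1 were paired. In replicate 2 these were 216 of 220 and 2465 of 2474. Unpaired peaks were left out, and in replicate 1 this took a larger part of the run peaks. Partners of replicate 1 run peaks had a mean percentile of 57.1 (295 pairs), against 51.2 for partners of the remaining peaks (2386 pairs). For replicate 2 run peaks it was 61.5 (216 pairs) against 58.5 (2465 pairs). Over the chromosomes the mean difference was 5.60 percentile points in replicate 1 (SD 3.31, higher on 6 of 6) and 3.37 in replicate 2 (SD 2.91, higher on 5 of 6). The exact sign-flip permutation over chromosomes gave p = 0.031 and p = 0.062, and neither passed after Benjamini-Hochberg adjustment over the 4 tests (adjusted p = 0.125 for each). With 6 chromosomes, 1 test at the smallest possible p of 0.031 has an adjusted p of 0.125 on its own, and 3 of the 4 tests would have to reach that p to pass, so a missed threshold does not show that the partners scored alike. Run peaks also scored higher than the remaining peaks in their own list, by median 322 against 231 in replicate 1 and 257 against 242 in replicate 2, and the part of this in the partners' rank was not tested. Among replicate 1 peaks below the median score of their list the difference was -0.66 percentile points, and among such replicate 2 peaks it was 3.37.

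Not every run was also a run in the other list. Of the 120 runs of replicate 1, 61 overlapped a run of replicate 2 (50.8%, exact interval 41.6 to 60.1), and of the 75 runs of replicate 2, 61 overlapped a run of replicate 1 (81.3%, 70.7 to 89.4). Merged into loci, the runs of both lists made 134 stretches, of which 61 were a run in both lists, 59 in replicate 1 alone and 14 in replicate 2 alone. Chromosome I had 19 of the 61, III had 14, II and IV had 9 each, V had 7 and X had 3. At equal list lengths the shares were 73.2% of replicate 1 runs and 69.3% of replicate 2 runs. Every peak had a counterpart in 70 runs of replicate 1 (58.3%, 49.0 to 67.3) and in 62 of replicate 2 (82.7%, 72.2 to 90.4).

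Missing peaks were seen in more of the other runs than merged peaks were. Of the 59 replicate 1 runs that were no run in replicate 2, 29 had a linked pair there, 28 had single peaks and 2 had no peak. In 39 of the 59 at least 1 peak was missing and none were merged. In 15 all peaks were present but at least 2 neighbours lay under 1 replicate 2 peak, in 4 both occurred, and in 1 neither did. The median score of the lowest peak was 71.7 in these 59 runs and 163 in the 61 runs that were kept, while the median top scores were 786 and 805. Of the 14 replicate 2 runs that were no run in replicate 1, 11 had missing peaks alone, 2 merged peaks alone and 1 both.

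Most bridged links had short gaps. In replicate 1 runs, 24 of 261 links (9.20%, 5.98 to 13.4) were bridged by 1 replicate 2 peak, with a median gap of 220 bp, against 1420 bp in links that were not bridged. Of the 52 links with a gap under 500 bp, 19 were bridged (36.5%), and of the 209 with a longer gap, 5 (2.39%). In replicate 2 runs, 6 of 158 links were bridged by a replicate 1 peak (3.80%, 1.41 to 8.08), with a median gap of 91 bp, and 5 of the 38 with a gap under 500 bp (13.2%). Pairs had bridged links too, 29 of 432 in replicate 1 (6.71%) and 14 of 288 in replicate 2 (4.86%). Under 500 bp these were 24 of 83 (28.9%) and 13 of 57 (22.8%). The share for short links was thus above that of pairs in replicate 1 runs and below it in replicate 2 runs, without a test of either gap. A bridge here needs an overlap of only 1 bp with each peak. On chromosome IV from 13776916 to 13789553, the first 2 of 4 replicate 1 peaks (scores 693 and 438) lay under a replicate 2 peak of 4332 bp with a score of 1520, while the other 2 (282 and 173) had partners of 305 and 173. On I from 4643788 to 4655194, replicate 1 peaks of 250 and 823 lay under a replicate 2 peak of 646. On I from 1690396 to 1703429, those of 747 and 1052 lay under one of 699, and the first peak of that run had no counterpart.

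Bridging also ran the other way. On I from 10559742 to 10568619, replicate 2 peaks of 59.6 and 847 lay under a replicate 1 peak of 4161 bp with a score of 1250. On V from 20705061 to 20712583, 2 of 3 replicate 2 peaks (75.2 and 603) lay under a replicate 1 peak of 5340 bp (811). On III from 4559611 to 4569872, 2 strong peaks at 3100 stood in both lists, and replicate 2 had a peak of 130 between them that the first replicate 1 peak also touched. Runs on IV from 16858789 to 16866601 (1689, 3100 and 3100) and on I from 10549131 to 10554828 (184, 132 and 625) had 3 peaks in both lists, with neighbours that overlapped the same replicate 1 peak at an edge.

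Only 2 runs, both of replicate 1, had no peak of the other list at any of their peaks. The run on II from 3159420 to 3168121 had peaks of 2300, 3650 and 2328 bp with scores of 201, 232 and 169, and gaps of 9 and 415 bp between them, and the nearest replicate 2 peak was 39.7 kb away. Its 3 scores were in a range in which most replicate 1 peaks had a counterpart, since they fell into the second score quartile, where 77.4% had one. The run on III from 5202159 to 5209581 scored 160, 132 and 55.0, and the nearest replicate 2 peak was 5.01 kb away. Its scores of 160 and 132 fell into the second quartile too, and 55.0 into the lowest, where 39.6% had a counterpart.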

How the data were processed

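EPC-1 ChIP-seq was analysed from the deposited peak lists of 2 immunoprecipitations. Per the submitters' processing notes, the aligner was BWA. Each list gives binding sites in WS190 coordinates, per the file headers, with a score for each peak that the authors deposited. The peaks are named after MACS and the source column names MA2C. Caller settings, use of input, versions and read depth are not stated in the labels or files, so low-scoring peaks may depend on depth. The labels do not say whether the replicates are separate cultures, so their spread may be technical.

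Runs were built by linking midpoints 5000 bp or less apart. Presence was an overlap of at least 1 bp. Shares have exact Clopper-Pearson 95% intervals. Those on peaks count the linked peaks of a run as separate and may be too narrow. Differences in presence and in partner percentile were tested per list with the chromosomes as units, by an exact permutation of signs (two-sided), adjusted over 4 tests. Peaks of a run share their source and are not replicates. The runs named are those with the most peaks in each list, in both lists, without a counterpart, or with merged peaks, up to 5 each, with ties going to the longer span. Members and settings were chosen with earlier results of these data known. Linking distance, run size, score minimum, list length, overlap and chromosome X were varied. The code was tested on simulated data. Software was pandas 2.3.3, NumPy 2.4.6 and SciPy 1.17.1 under Python 3.11.15, with matplotlib 3.10.9 for figures.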

Additional observations from a re-analysis of the deposited data

How the results depend on the processing

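Of 44 recomputed differences with a test, 38 kept their direction, 6 reversed and none passed the threshold (adjusted p from 0.062 to 0.97). With 6 chromosomes p cannot fall below 0.031, nor below 0.0625 without X, so that none passed says nothing about stability. Presence reversed in replicate 1 to -0.42 percentage points among scores below the median, and in replicate 2 to 0.62 at equal list lengths, 0.57 at a linking distance of 4000 bp, 3.03 in runs of 4 or more peaks and 2.66 at scores of 100 or more. Partner percentile reversed in replicate 1 to -0.66 among scores below the median. The cause of these reversals was not tested. The widest presence differences kept their direction. They were 10.2 percentage points in replicate 1 with both lists cut to scores of 100 or more and -3.37 in replicate 2 among scores below the median. Each had p = 0.031 in the exact sign-flip permutation over chromosomes, the smallest possible, and an adjusted p of 0.125. The cut at 100 took lower peaks out of both lists, so replicate 2 peaks under 100 no longer counted as counterparts. Against the full replicate 2 list, replicate 1 run peaks scoring 107.67 to 242.39 had a counterpart in 74.7%, against 77.7% of remaining peaks. At scores of 242.57 to 679.75 the shares were 100% and 98.9%, and at 680.1 or more 100% and 99.9%. Runs of 4 or more are missing on V in replicate 1 and on V and X in replicate 2, so p could not fall below 0.0625 and 0.125.

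The number of runs in replicates 1 and 2 was 75 and 47 at 4000 bp, 226 and 146 at 7500 bp, 18 and 8 with 4 or more peaks, and 67 and 41 at scores of 100 or more. At equal list lengths replicate 1 had 71. The share of peaks in runs was 6.77% and 5.12%, 22.8% and 17.2%, 2.17% and 1.13%, and 7.93% and 5.77% in the same order of settings, and 7.94% in replicate 1 at equal lengths. The share of runs that overlapped a run of the other list moved to 33.3% in replicate 1 with 4 or more peaks, to 90.2% in replicate 2 at scores of 100 or more, and to 73.2% and 69.3% at equal lengths. These settings change which peaks and runs are counted. The minimum of 4 peaks applied to the runs of both lists. Of the 18 replicate 1 runs of 4 or more, 12 overlapped a replicate 2 run of 3 or more, against 49 of the 102 runs of 3. In replicate 2 these were 7 of 8 and 54 of 67. The difference was not tested. Replicates 1 and 2 alone gave 120 and 75 runs. Omission of run peaks linked across a gap under 500 bp, chosen after the data were seen, left the direction of all 4 differences as it was. No paired analysis was possible because input DNA was not analysed and no second group has values. Unknown depth limits what a missing weak peak shows.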
